A study of Homo sapiens with 24 samples.

Results

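The glycine, glutamate and aspartate transfer RNA (tRNA) genes were followed in HEK293, a human cell line of embryonic kidney origin, whose cells overexpressed a nuclear lamin or eGFP. The genes were chosen by name alone: nuclear features typed as tRNA whose deposited name starts with tRNA-Gly, tRNA-Glu or tRNA-Asp. This rule gave 70 genes of the 175946 features in the small RNA table, and of 499 nuclear tRNA genes with a standard isotype name. There were 33 glycine genes, with the anticodons GCC (15 genes), CCC (9 genes) and TCC (9 genes), 18 glutamate genes, with CTC (10 genes) and TTC (8 genes), and 19 aspartate genes, all with GTC. The same features were read in the ATAC-seq table, which counts transposase insertions and so measures how open the chromatin is.

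All cells had the wild-type genotype. The 4 groups overexpressed eGFP (the control, GFP below), LMNA, LMNB1 or LMNB2, and each had 3 small RNA libraries and 3 ATAC-seq libraries. LMNA, LMNB1 and LMNB2 encode lamins, the filament proteins that line the inner nuclear membrane. A single cell line was used, and neither the vector and its promoter, nor the time between overexpression and harvest, nor whether replicates came from separate cultures is given in the labels. The p-values therefore measure the spread between these libraries, which may be technical.

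tRNA genes are transcribed by RNA polymerase III from promoter boxes that lie inside the gene, and the transcript is trimmed at both ends, modified and charged with its amino acid. Many human tRNA genes occur as several copies with the same mature sequence, so a short read often cannot be assigned to a copy. Glycine, glutamate and aspartate tRNAs are known as abundant sources of tRNA fragments in small RNA libraries. The counts used here cover whole gene intervals and do not separate full-length tRNA from its fragments.

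Small RNA libraries held 132507051 to 195074742 counts, and ATAC-seq libraries 156043245 to 290158229. The 70 genes took 0.344, 0.472 and 0.890% of the small RNA counts in GFP replicates 1, 2 and 3, against 0.534 to 0.670% in the 9 lamin libraries. GFP replicate 3 thus stood above every other library and GFP replicates 1 and 2 below, and results against GFP are given below with and without GFP replicate 3. The mitochondrial share of ATAC-seq counts was 39.9 to 47.5% for GFP libraries, 39.4 to 44.1% for LMNA, 32.8 to 34.1% for LMNB1 and 24.5 to 30.7% for LMNB2. Its part in the ATAC-seq results was not tested. The overexpressed genes matched the labels: in each lamin group at least 1 ATAC-seq window over that lamin's own gene was called higher than in GFP, by up to 8.65 (LMNA), 9.90 (LMNB1) and 10.9 (LMNB2) on the log2 scale, although the only small RNA feature tested over LMNA stood at -0.09. Precursors of 7 blood, liver and muscle microRNAs summed to 0.0245 to 0.104 CPM per small RNA library, with MIR451A and MIR133B at 0 in all 12 libraries, against 69.3 to 331 CPM for 6 precursors usually abundant in HEK293 cells. These 6 lay lower in LMNB2 than in GFP by fold change, with a median of -0.91 on the log2 scale. By edgeR's quasi-likelihood test 6 of 6 had an unadjusted p under 0.05, where 19.9% of all features did. The test called 1, MIR20A, where 2.66% were called. Their sums overlapped between the groups, at 73.8 to 331 CPM in GFP and 69.3 to 79.2 CPM in LMNB2. These 6 were not read without GFP replicate 3. Against LMNA the median of the 6 was -0.73, with 3 of 6 at that p and 0 called, beside 16.4% and 2.01% of all features. Their part in the small RNA results of LMNB2 was not tested.

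Positions are on GRCh38, per the submitters' processing notes. A RefSeq tRNA gene (GRCh38.p14) overlaps 58 of the 70 intervals, and 15 intervals lie inside the span of a protein-coding gene, such as TRG-GCC2-6 in HES7, TRD-GTC2-8 in LTA4H and TRE-TTC1-2 in ELF1. The densest group is a tandem array of 18 genes on the long arm of chromosome 1 (161440146 to 161470511), in which a unit of 7360 to 7431 bp repeats the order TRE-CTC, TRG-TCC, TRD-GTC on the minus strand and TRG-GCC on the plus strand. RefSeq symbols are used below where they exist (TRG, TRE and TRD for glycine, glutamate and aspartate), and the deposited name for the other 12 genes. The 70 intervals carry 35 distinct sets of sequence identifiers, which shows how far the copies share their sequence.

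Levels between genes are compared as CPM (counts relative to the TMM-scaled library size) per 100 bp. In small RNA, the glutamate CTC genes were the highest by median, at 165 CPM per 100 bp, with 163 to 166 over the 8 that overlap a RefSeq tRNA gene. The median small RNA level was 104 CPM per 100 bp for aspartate GTC, 82.5 for glycine GCC, 54.6 for glutamate TTC, 11.5 for glycine CCC and 3.47 for glycine TCC. TRG-CCC1-1 (chromosome 1, 16545914 to 16546034, minus strand) had the highest small RNA level of all 70, 228 CPM per 100 bp, and the other glycine CCC genes went down to 0.221.

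In ATAC-seq the order was another. The glycine TCC genes, lowest in small RNA, had the highest median ATAC-seq level, 1.84 CPM per 100 bp of window, against 0.847 for glutamate TTC, 0.814 for glutamate CTC, 0.696 for glycine CCC, 0.501 for aspartate GTC and 0.460 for glycine GCC. Over genes with a RefSeq tRNA gene alone, the glutamate CTC median was 1.81, close to glycine TCC at 1.84, and the aspartate median 1.10. TRE-CTC1-3 and TRG-TCC2-3, neighbours in the array whose windows overlap and share reads, reached 4.36 and 3.95 CPM per 100 bp of window. Across the 63 genes tested in both assays, Spearman's rho between small RNA and ATAC-seq level was 0.15, and across the 58 of them with a RefSeq tRNA gene it was 0.02. Over the 23 distinct sequences of those 58, rho was 0.05 with means over copies and 0.27 with ATAC-seq summed over copies. These are descriptions across genes that share libraries and, among copies, reads.

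**Figure D1:**
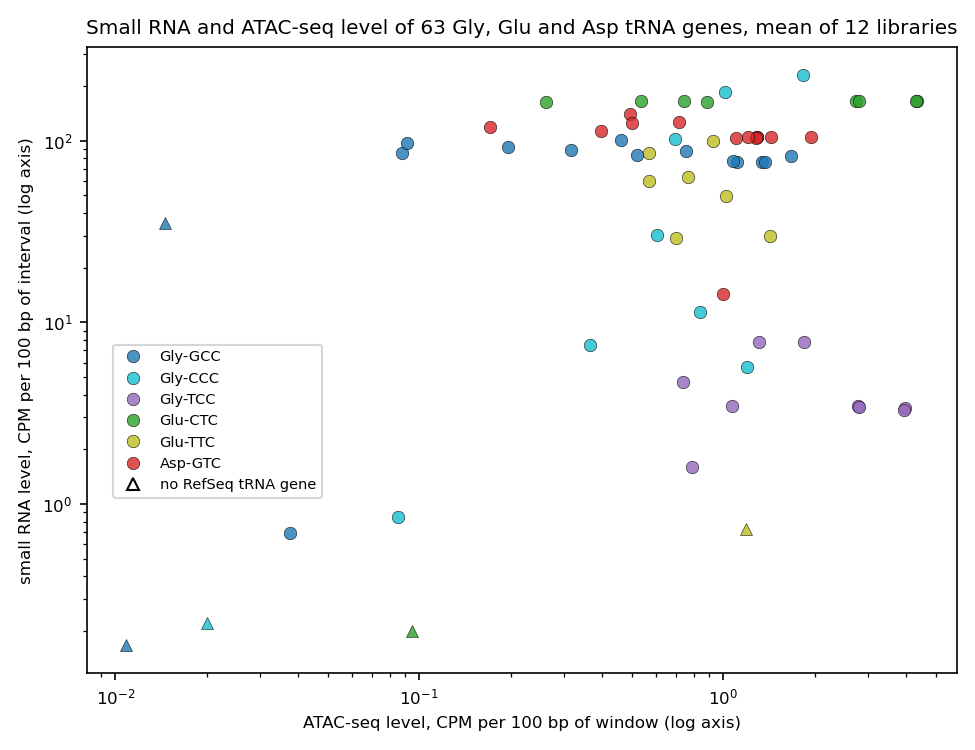
Small RNA level against ATAC-seq level for the 63 genes tested in both assays (each point is a gene, mean of 12 libraries, both axes logarithmic, in CPM per 100 bp). Triangles mark genes with no RefSeq tRNA gene, and the glycine TCC genes lie low in small RNA (1.59 to 7.82) and high in ATAC-seq (0.738 to 3.95).

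In each of the 5 sets of copies with 5 or more genes, copies spanned a narrower range in small RNA than in ATAC-seq. The 7 copies of TRE-CTC1 had mean small RNA levels of 194 to 201 CPM, a 1.03-fold range, but ATAC-seq levels of 2.00 (TRE-CTC1-6) to 16.1 CPM (TRE-CTC1-3), an 8.04-fold range. The 6 copies of TRG-GCC2 spanned 1.21-fold in small RNA and 8.29-fold in ATAC-seq, from 0.337 CPM at TRG-GCC2-5 to 2.79 CPM at TRG-GCC2-3. The 11 copies of TRD-GTC2 spanned 1.34-fold in small RNA, 127 to 170 CPM, and 4.88-fold in ATAC-seq, lowest at TRD-GTC2-9 and highest at TRD-GTC2-10. For the 6 copies of TRG-TCC2 the ranges were 1.41-fold and 5.35-fold, and for the 5 copies of TRG-GCC1 1.08-fold and 1.55-fold. The other 5 sets are pairs, spanning 1.02- to 1.67-fold in small RNA and 1.35- to 2.31-fold in ATAC-seq. The TRE-TTC1 pair spanned 1.34-fold and 1.35-fold, and the TRE-TTC2 pair, at 1.67-fold and 1.63-fold, was the only one of the 10 sets with the wider range in small RNA. How reads that match several copies were counted is not given in the sources used here, so small RNA values of copies are uncertain as values of single genes and are not independent of each other.

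Of the 70 genes, 65 passed the filter on low counts in small RNA and 66 in ATAC-seq. The 5 left out in small RNA have no RefSeq tRNA gene: tRNA-Asp-GTC-6-1 and tRNA-Asp-GTC-9-1 had 0 counts in all 12 libraries, which allows up to 0.0154 to 0.0226 CPM per library (3 counts, counting error only), and tRNA-Asp-GTC-8-1, tRNA-Asp-GTC-10-1 and tRNA-Glu-CTC-5-1 never exceeded 2 counts. The 4 left out in ATAC-seq, tRNA-Asp-GTC-4-1, tRNA-Asp-GTC-5-1, tRNA-Asp-GTC-6-1 and tRNA-Glu-CTC-5-1, also have none. The count of called genes below is therefore out of 65 or 66.

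The comparison of LMNB2 with GFP asked whether small RNA from these genes differed under lamin B2. Glycine genes lay lower in LMNB2: 15 of 15 GCC genes, 8 of 9 CCC genes and 9 of 9 TCC genes had a log2 fold change below 0, with medians of -0.39, -0.38 and -0.51. Aspartate genes lay higher, 13 of 15, with a median of 0.27. Glutamate CTC genes had a median of -0.01 and glutamate TTC genes of -0.26, and both depended on GFP replicate 3. The median over all 65 genes was -0.20, the same as over 398 other nuclear tRNA genes (-0.20), against -0.04 over all 33893 features. Without GFP replicate 3 it turned to 0.10, with 33 of 65 genes higher, and that of the other tRNA genes to 0.064.

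By the quasi-likelihood test of edgeR, adjusted over all features by the Benjamini-Hochberg method, 1 of the 65 genes was called (adjusted p under 0.05), where 2.66% of all features were called and 0.752% were called lower. It was tRNA-Gly-GCC-6-1, a low glycine GCC feature inside the lncRNA gene LINC02919 (chromosome 6, 142257614 to 142257734, plus strand) with no RefSeq tRNA gene. Its small RNA level was 0.27, 0.18 and 0.36 CPM in GFP and 0.15, 0.13 and 0.10 CPM in LMNB2. All 3 LMNB2 libraries lay below all 3 GFP libraries, with a log2 fold change of -1.001 ± 0.26 (SE, adjusted p = 0.0396). The call was lost in 14 of 23 alternative settings, among them without GFP replicate 3 (edgeR adjusted p = 0.143), with the replicate number as a block (0.055) and with total counts as the scale (0.27), and the level is a mean of 31.8 counts per library. An unadjusted p under 0.05 was found for 11 of the 65 genes, all lower, where 19.9% of all features had one and 10.4% were lower with one. DESeq2 called 5: tRNA-Gly-GCC-6-1, TRG-CCC1-2, TRG-TCC2-2, TRG-TCC2-4 and TRG-TCC2-5, all lower, where it called 3.52% of all features (the last 4 chosen after their values were seen).

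Of the 6 anticodons, glycine TCC had the median furthest from GFP. Other nuclear tRNA genes had medians by amino acid from -1.09 (alanine) to 0.01 (phenylalanine), with serine and glutamine at -0.51. Glycine TCC genes read GGA codons, and 6 of the 9 are copies of TRG-TCC2. TRG-TCC2-3, in the array, had 4.74, 3.98 and 4.70 CPM in GFP, 3.52, 4.69 and 4.99 CPM in LMNA, 4.37, 4.33 and 4.40 CPM in LMNB1 and 3.43, 2.94 and 3.03 CPM in LMNB2. The 3 LMNB2 libraries were lower than every GFP, LMNA and LMNB1 library. Its log2 fold change against GFP was -0.51 ± 0.19 (SE), with an adjusted p of 0.144 by edgeR's quasi-likelihood test. TRG-TCC1-1, on chromosome 19, had 11.85, 8.24 and 8.55 CPM in GFP and 7.95, 6.97 and 7.71 CPM in LMNB2, a log2 fold change of -0.34 ± 0.20. Over the 9 genes, LMNB2 and GFP did not overlap for 7, each lower, where 22.3% of all features did not overlap and 10.2% did so in the lower direction. Copies are not independent, so the 7 are not separate observations. Without GFP replicate 3 the median was -0.43, with 9 of 9 still below 0.

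Among the glycine GCC genes, which read GGC and GGU codons, the copies of TRG-GCC2 and TRG-GCC1 lay at different distances from GFP. TRG-GCC2-5, on chromosome 16 inside VAC14, had 128, 94.1 and 164 CPM in GFP, 128, 124 and 135 CPM in LMNA, 122, 115 and 112 CPM in LMNB1 and 98.7, 88.1 and 100.6 CPM in LMNB2. LMNB2 overlapped GFP through GFP replicate 2 but lay below all LMNA and LMNB1 libraries, and the log2 fold change against GFP was -0.43 ± 0.23. The 6 copies of TRG-GCC2 had a median of -0.41 and the 5 copies of TRG-GCC1 of -0.18. TRG-GCC1-5, on chromosome 21, had 85.8, 75.02 and 162 CPM in GFP and 94.6, 93.3 and 93.1 CPM in LMNB2, which lie inside the GFP range. Without GFP replicate 3 the GCC median was -0.09, and 6 of the 15 genes lay above 0.

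Among the glycine CCC genes, which read GGG codons, the highest gene by level, TRG-CCC1-1, had 275, 256 and 322 CPM in GFP, 287, 313 and 307 CPM in LMNA, 281, 297 and 290 CPM in LMNB1 and 227, 226 and 235 CPM in LMNB2. LMNB2 was below all other libraries, with a log2 fold change of -0.31 ± 0.21 against GFP (adjusted p = 0.445 by edgeR's quasi-likelihood test). LMNB2 and GFP did not overlap for 3 of the 9 CCC genes, beside 22.3% of all features. The CCC median was -0.21 without GFP replicate 3.

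The glutamate genes read GAG (CTC) and GAA (TTC) codons. TRE-CTC1-6, on chromosome 6, had 170, 159 and 278 CPM in GFP, 259, 212 and 213 CPM in LMNA, 207, 171 and 171 CPM in LMNB1 and 201, 177 and 192 CPM in LMNB2. GFP replicate 3 was the highest of the 12 libraries and GFP replicate 2 the lowest, so no group separated from GFP. Without GFP replicate 3 the CTC median turned from -0.01 to 0.26, and that of TTC from -0.26 to 0.00. TRE-TTC2-1 had 154, 112 and 134 CPM in GFP, 96.3, 126 and 110 CPM in LMNA, 139, 121 and 152 CPM in LMNB1 and 109, 99.9 and 106 CPM in LMNB2. LMNB2 lay below GFP in all libraries, and LMNA lay within and below it, with log2 fold changes of -0.35 ± 0.22 and -0.27 ± 0.22.

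Aspartate GTC genes read GAC and GAU codons, and 11 of the 19 are copies of TRD-GTC2. TRD-GTC3-1, on chromosome 6, had 135, 158 and 111 CPM in GFP, 141, 136 and 140 CPM in LMNA, 135, 138 and 150 CPM in LMNB1 and 177, 154 and 176 CPM in LMNB2. LMNB2 overlapped GFP through GFP replicate 2 and lay above all LMNA and LMNB1 libraries. Its log2 fold change against GFP was 0.33 ± 0.22 (adjusted p = 0.415 by edgeR's quasi-likelihood test), the highest of the 65 genes. TRD-GTC2-3, in the array, had 111, 144 and 106 CPM in GFP and 154, 132 and 154 CPM in LMNB2, a log2 fold change of 0.29 ± 0.22. The GTC median stayed above 0 without GFP replicate 3 (0.23, 13 of 15 above 0) and under each of 22 alternative settings. The median of each glycine anticodon stayed below 0 under the same settings.

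TRD-GTC1-1, on chromosome 12, went against the other aspartate genes with a RefSeq tRNA gene (chosen after its values were seen). It had 16.3, 16.6 and 16.96 CPM in GFP, 21.8, 19.3 and 20.3 CPM in LMNA, 17.9, 18.3 and 21.7 CPM in LMNB1 and 13.3, 12.8 and 14.2 CPM in LMNB2. LMNB2 lay below and both other lamins above all GFP libraries. The log2 fold change of LMNB2 was -0.31 ± 0.19 against GFP, -0.61 ± 0.19 against LMNA and -0.52 ± 0.19 against LMNB1, with adjusted p of 0.375, 0.106 and 0.173 by edgeR's quasi-likelihood test. DESeq2 called it against LMNA (adjusted p = 0.000402), against LMNB1 (0.00545) and for the 4 groups jointly (0.00077).

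**Figure D2:**
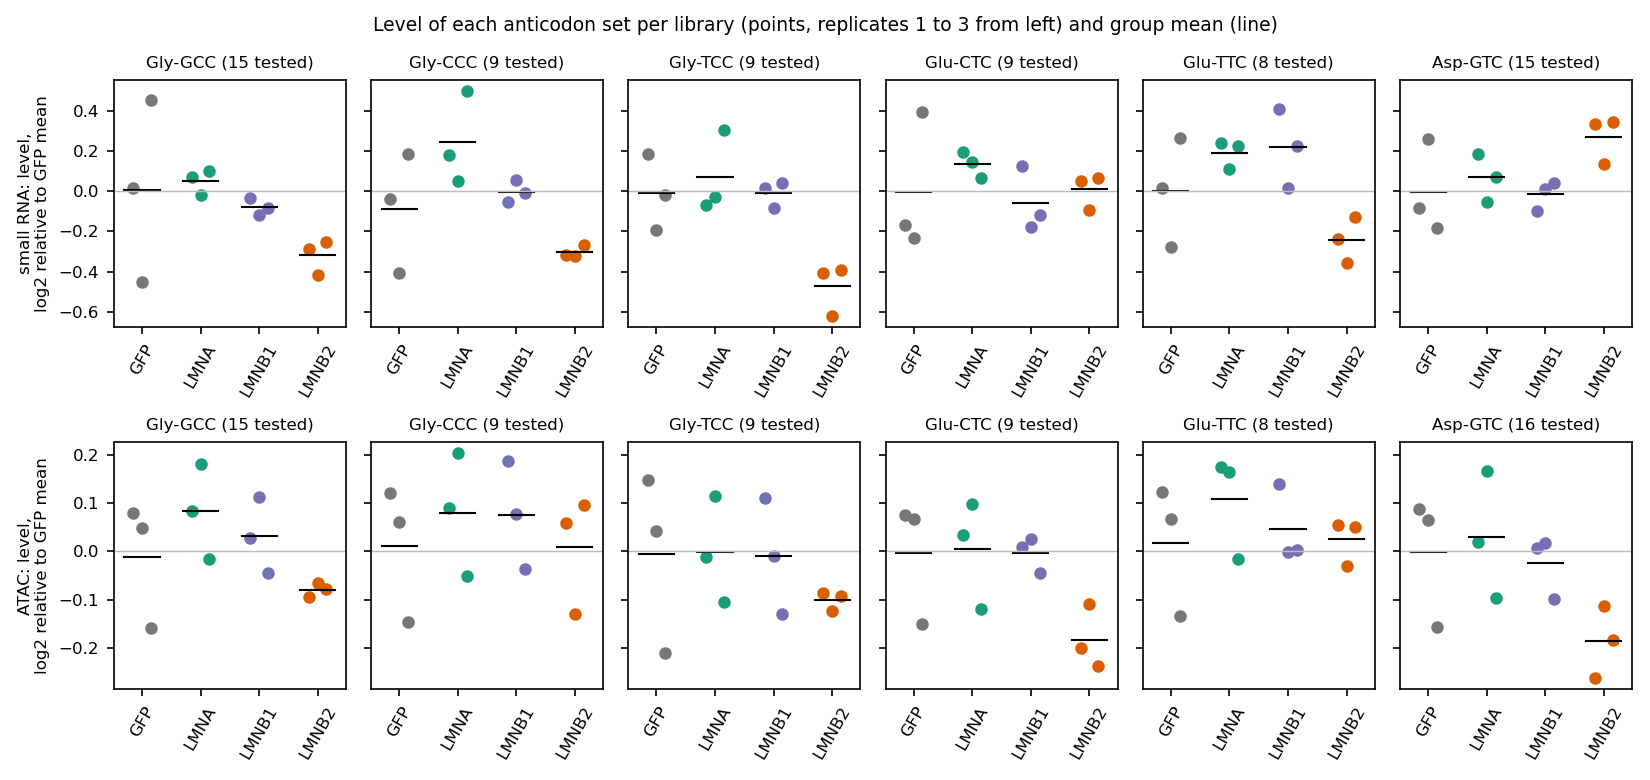
Level of each anticodon set in each library: each point is the median, over the tested genes, of a gene's log2 CPM relative to its mean in GFP, in small RNA (top) and ATAC-seq (bottom). In small RNA the 3 LMNB2 libraries lie at -0.62 to -0.39 for glycine TCC and at 0.14 to 0.35 for aspartate GTC, and the GFP libraries spread from -0.45 to 0.45 for glycine GCC.

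The lamins were also compared with each other, which leaves out the GFP libraries but reuses the same LMNB2 libraries. Against LMNA, 33 of 33 glycine genes lay lower in LMNB2, with medians of -0.41 (GCC), -0.52 (CCC) and -0.51 (TCC), and the 2 groups did not overlap for 32 of them, where 28.1% of all features did not overlap and 13.5% did so in the lower direction. The other nuclear tRNA genes also lay lower, with a median of -0.43, so a lower level was not particular to glycine genes. Copies are not independent, so the glycine counts are not of separate observations. Glutamate medians were -0.12 (CTC) and -0.28 (TTC), with 17 of 17 genes lower, and the aspartate median was 0.21, with 12 of 15 higher. With total counts as the scale, 27 of 33 glycine genes lay lower, the glutamate CTC median turned to 0.102 and the median over all 65 genes was -0.041 in place of -0.26. Without lncRNA features, 27 of 33 glycine genes lay lower and the glutamate CTC median was 0.081. No gene was called by edgeR's quasi-likelihood test, where 2.01% of all features were (lowest adjusted p = 0.106). Unadjusted, 16 genes had a p under 0.05, as did 16.4% of all features, and DESeq2 called 5, where it called 1.78% of all features. Fitting only the 6 libraries compared gave 26 calls, all lower, where that fit called 10.5% of all features: 23 glycine genes, 2 glutamate TTC genes and 1 aspartate gene.

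Against LMNB1, 33 of 33 glycine genes again lay lower in LMNB2, with medians of -0.26 (GCC), -0.33 (CCC) and -0.48 (TCC). The other nuclear tRNA genes lay lower as well, with a median of -0.38. Glutamate TTC genes were lower in 8 of 8, with a median of -0.32, and glutamate CTC genes had a median of 0.06, which changed sign without LMNB1 replicate 2. With total counts as the scale, or without lncRNA features, 28 of 33 glycine genes lay lower. Aspartate genes were higher in 13 of 15, with a median of 0.29, and in all 13 the LMNB2 libraries lay above the LMNB1 libraries, where 29.6% of all features did not overlap and 15.6% did so in the higher direction. Of the 15, 11 are copies of TRD-GTC2, which are not independent, so the 13 are not separate observations. No gene was called by edgeR's quasi-likelihood test, where 2.19% of all features were (lowest adjusted p = 0.138). Unadjusted, 11 genes had a p under 0.05, as did 16.0% of all features, and DESeq2 called 1, TRD-GTC1-1, where it called 1.91% of all features. Fitting only the 6 libraries compared gave 35 calls, where that fit called 15.5% of all features: 9 aspartate genes higher, and 20 glycine, 4 glutamate TTC and 2 aspartate genes lower. The 9 aspartate genes are TRD-GTC3-1 and copies of TRD-GTC2. Leaving out GFP replicate 3 alone gave 9 calls against LMNA and 6 against LMNB1, all lower, where 5.68% and 6.0% of all features were called.

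LMNA and LMNB1 were compared with the same GFP libraries as LMNB2. For LMNA, 50 of the 65 genes lay higher and the median was 0.06, beside 0.16 for the other nuclear tRNA genes and -0.05 for all features. For LMNB1, 17 of 65 lay higher, with a median of -0.05, beside 0.12 and -0.05. No gene was called in either comparison by edgeR's quasi-likelihood test, where 0.0% and 0.0384% of all features were. None stood at an unadjusted p under 0.05, where 5.46% and 5.51% of all features did, and DESeq2 called 0 in both. Without GFP replicate 3 the medians were 0.33 and 0.16, beside 0.10 for LMNB2. In both comparisons some genes then stood at an unadjusted p under 0.05. Neither their number nor the share of all features in that fit is given here. TRG-CCC3-1 (chosen after its values were seen) was then called higher in LMNA, where 0.842% of all features were called. With total counts as the scale, 39 of 65 genes lay higher in LMNB1, with a median of 0.11.

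Glutamate TTC genes had a median of 0.24 in LMNA and of 0.24 in LMNB1. In LMNA it was 0.062 without LMNA replicate 3, and without GFP replicate 3 it was 0.46, below glycine CCC at 0.55. TRE-TTC1-2, inside ELF1 on chromosome 13, had 85.9, 73.3 and 122 CPM in GFP, 94.7, 103 and 119 CPM in LMNA, 139, 112 and 147 CPM in LMNB1 and 80.4, 73.8 and 94.4 CPM in LMNB2. LMNB1 overlapped GFP through GFP replicate 3 and lay above all LMNB2 libraries. The log2 fold change of LMNB1 against GFP was 0.50 ± 0.24 (adjusted p = 0.861 by edgeR's quasi-likelihood test), and that of LMNB2 against LMNB1 was -0.68 ± 0.24 (adjusted p = 0.171). LMNB1 and LMNA did not differ by a call in any gene, where 0.0118% of all features did. At an unadjusted p under 0.05 stood 2 genes, where 5.74% of all features did, DESeq2 called 0, and the median was -0.11.

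**Figure D3:**
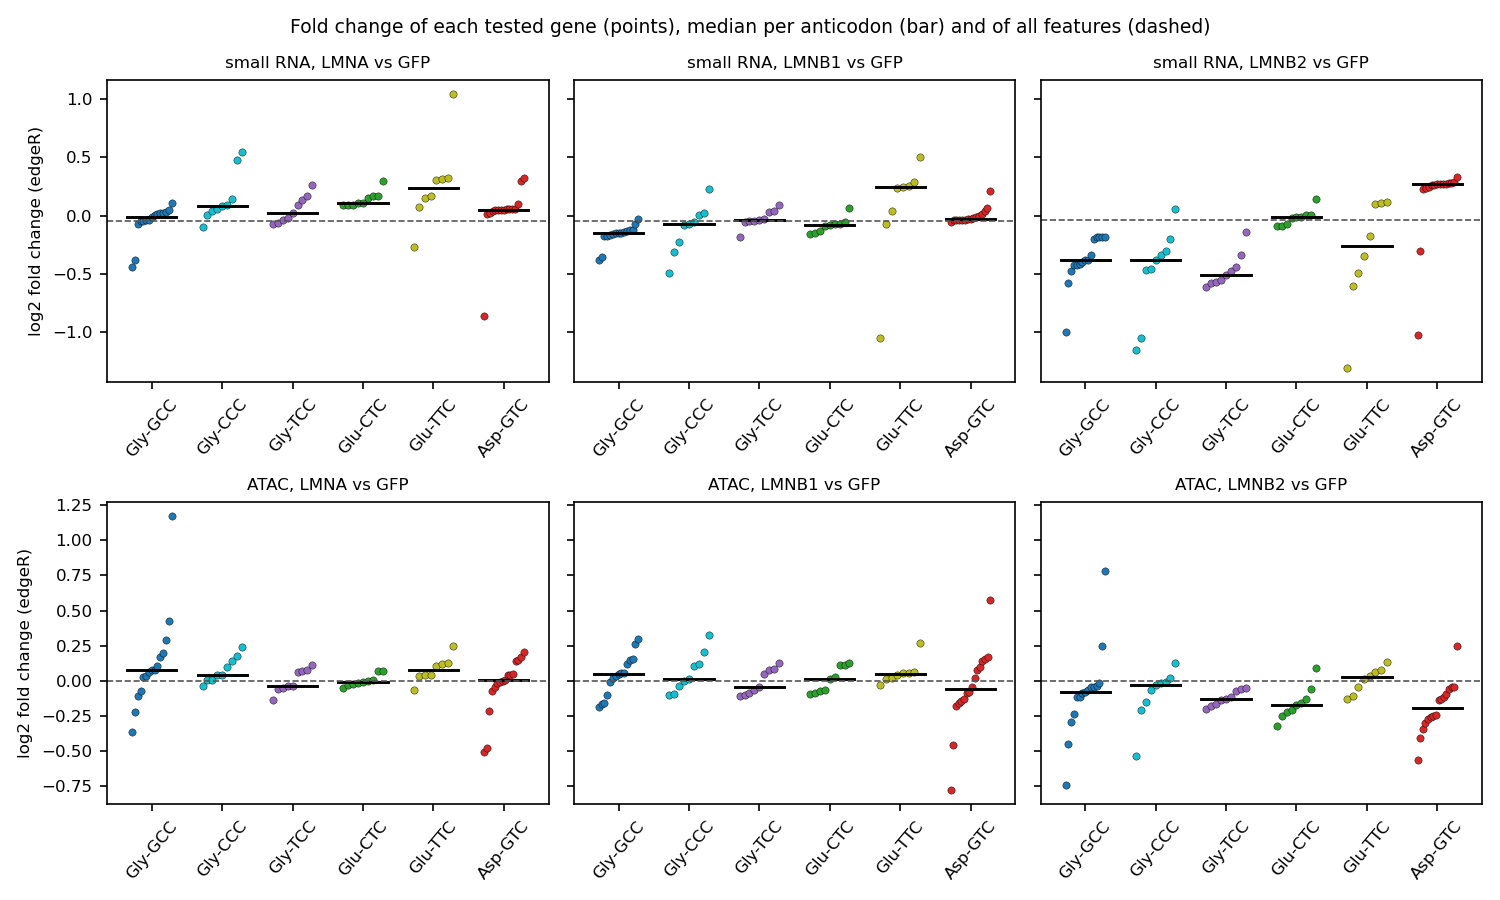
Log2 fold change of each lamin against GFP for every tested gene (points), by anticodon, in small RNA (top) and ATAC-seq (bottom). Black bars are anticodon medians and the dashed line is the median of all features, and the 3 comparisons of an assay share the GFP libraries. In small RNA the aspartate median lies at 0.27 and the glycine TCC median at -0.51 in LMNB2.

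Ratios within a library do not depend on how libraries are scaled. The log2 ratio of the mean count per copy of TRD-GTC2 to that of TRG-TCC2 was 4.50, 5.17 and 4.54 for the GFP libraries, 5.13, 4.75 and 4.55 for LMNA, 4.68, 4.87 and 4.79 for LMNB1 and 5.53, 5.53 and 5.57 for LMNB2. All 3 LMNB2 libraries lay above the other 9. The pairs of sets were not planned, and these 2 sets lay in opposite directions in LMNB2, at mean levels of 0.27 and -0.56 relative to GFP. The separation of their ratio is therefore no independent support, and no share over other pairs was computed. The ratio of TRD-GTC2 to TRG-GCC2 was 0.80, 0.75 and 0.75 in LMNB2, 0.08 to 0.25 in LMNA and 0.08 to 0.32 in LMNB1. In GFP it was 0.05, 0.83 and -0.47, so the GFP libraries spanned all other groups. The ratio of TRG-GCC1 to TRG-GCC2 was -0.08, 0.04 and -0.10 in LMNB2 and -0.33 to -0.32 in LMNA, and its GFP values, -0.58, -0.34 and -0.02, overlapped both. The ratio of TRD-GTC2 to TRE-CTC1 was -0.34 to -0.29 in LMNB2, above LMNA (-0.77 to -0.61) and inside the GFP range of -1.21 to -0.07. No test was made of the ratios.

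**Figure D4:**
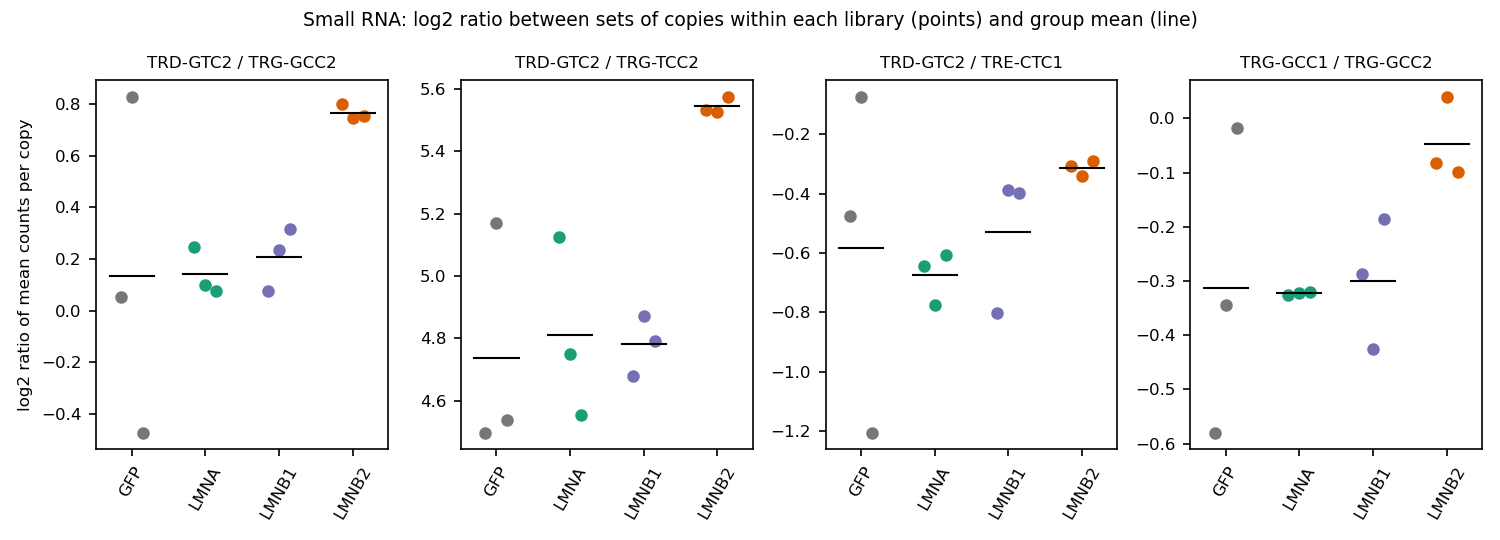
Log2 ratio of mean small RNA counts per copy between sets of copies, in each library (points, replicates 1 to 3 from left) with the group mean (line). In the panel of TRD-GTC2 over TRG-TCC2 the LMNB2 libraries lie at 5.53 to 5.57 and all others at 5.17 or below, while the GFP libraries span -0.47 to 0.83 in the panel of TRD-GTC2 over TRG-GCC2.

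Chromatin at most genes with a RefSeq tRNA gene was open relative to its surroundings. Over the 58 genes with a RefSeq tRNA gene, the ATAC-seq window held a median of 3.91 more on the log2 scale, per kb, than the flanks of 50 kb, and 53 of the 58 were over 4-fold above them. The median was 3.28 against flanks of 5000 bp, with 46 over 4-fold, and 1.96 against flanks of 500 bp, with 28 over 4-fold. Of the 58, 1 lay below its flanks of 50 kb, 0 below those of 5000 bp and 5 below those of 500 bp. Among the 5 were TRD-GTC2-2 to TRD-GTC2-5 of the array, at -0.60, -0.94, -0.63 and -1.04. Over the 12 genes with none the median was -0.62 against flanks of 50 kb, with 2 of the 12 over 4-fold above and 9 below. Against flanks of 500 bp it was -0.13, with 1 over 4-fold and 6 below. TRG-CCC1-1 stood 4.98 above its flanks of 50 kb on this scale, TRE-CTC1-3 4.68 and TRG-GCC2-6, inside HES7, 1.98. Above flanks of 500 bp the 3 genes stood 3.59, 2.55 and 0.73.

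With TMM scaling, genes lay slightly lower in ATAC-seq in LMNB2 than in GFP: 55 of 66, with a median log2 fold change of -0.11, beside -0.09 for 416 other nuclear tRNA genes and 0.00 for all 163786 windows. By anticodon the medians were -0.19 for aspartate GTC, -0.17 for glutamate CTC, -0.13 for glycine TCC, -0.08 for glycine GCC, -0.03 for glycine CCC and 0.02 for glutamate TTC. With total counts as the scale, the median of all windows was 0.11, that of the members 0.00, and the glycine GCC and CCC medians turned to 0.03 and 0.08, while those of aspartate GTC, glutamate CTC and glycine TCC stayed below 0. No gene was called by edgeR's quasi-likelihood test, where 0.00244% of all windows were (lowest adjusted p = 0.748), and DESeq2 called 0. An unadjusted p under 0.05 was found at 14 genes, all lower, where 5.72% of all windows had one and 2.83% were lower with one. With genes combined by deposited name up to and including its first number, 1 of 26 units had one and the median was -0.063. These units are not sets of copies as used above. They join TRG-GCC1 with TRG-GCC2 and TRD-GTC1-1 with TRD-GTC2, and they split TRE-CTC1. The median over the 66 genes was -0.068, -0.063 and -0.18 without GFP replicate 1, 2 and 3. With genes kept apart, LMNB2 lay below GFP without overlap for 10, where 10.3% of all windows did not overlap and 4.72% did so in the lower direction.

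The array on chromosome 1 carried most of these: 18 of its 18 genes lay lower in LMNB2, with a median of -0.19, 11 of them at an unadjusted p under 0.05 and 6 without overlap. Of all windows, 2.83% were lower at that p and 4.72% were lower without overlap. Neighbouring TRE-CTC1 and TRG-TCC2 windows overlap and share reads, and how reads that match several units were placed is not given. The 18 genes are therefore not separate observations. Outside the array 37 of 48 genes lay lower, with a median of -0.06. With total counts as the scale, 16 of the 18 array genes lay lower (median -0.084) and only 17 of the 48 outside it (median 0.047). The difference between array and other genes was not tested. TRD-GTC2-2 (161448218 to 161448339, minus strand) had 5.61, 5.40 and 4.78 CPM in GFP, 4.92, 5.45 and 4.64 CPM in LMNA, 5.16, 5.06 and 4.07 CPM in LMNB1 and 4.01, 4.41 and 4.01 CPM in LMNB2. LMNB2 was below all GFP and LMNA libraries and overlapped LMNB1 through LMNB1 replicate 3. Its log2 fold change against GFP was -0.34 ± 0.09 (unadjusted p = 0.00074, adjusted p = 0.751 by edgeR's quasi-likelihood test).

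TRE-CTC1-3, with the highest ATAC-seq level of the 70 genes, had 18.1, 17.9 and 15.5 CPM in GFP, 16.9, 17.8 and 15.1 CPM in LMNA, 16.8, 16.7 and 14.9 CPM in LMNB1 and 14.0, 14.9 and 14.3 CPM in LMNB2. LMNB2 did not overlap GFP, with a log2 fold change of -0.25 ± 0.07 (adjusted p = 0.748 by edgeR's quasi-likelihood test). Replicate 3 was the lowest library of GFP, of LMNA and of LMNB1. Array medians by anticodon were -0.27 for aspartate GTC, -0.21 for glutamate CTC, -0.16 for glycine TCC and -0.089 for glycine GCC, the last of which turned to 0.019 with total counts as the scale. The 5 aspartate genes of the array lay higher in small RNA (median 0.27, 5 of 5) and lower in ATAC-seq (median -0.27, 5 of 5) in the same comparison of LMNB2 with GFP, and neither direction was called for any of them. All 5 are copies of TRD-GTC2, which has copies outside the array. Their small RNA values are not independent and are uncertain as values of these loci, so opposite directions at the same locus are not shown.

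**Figure D5:**
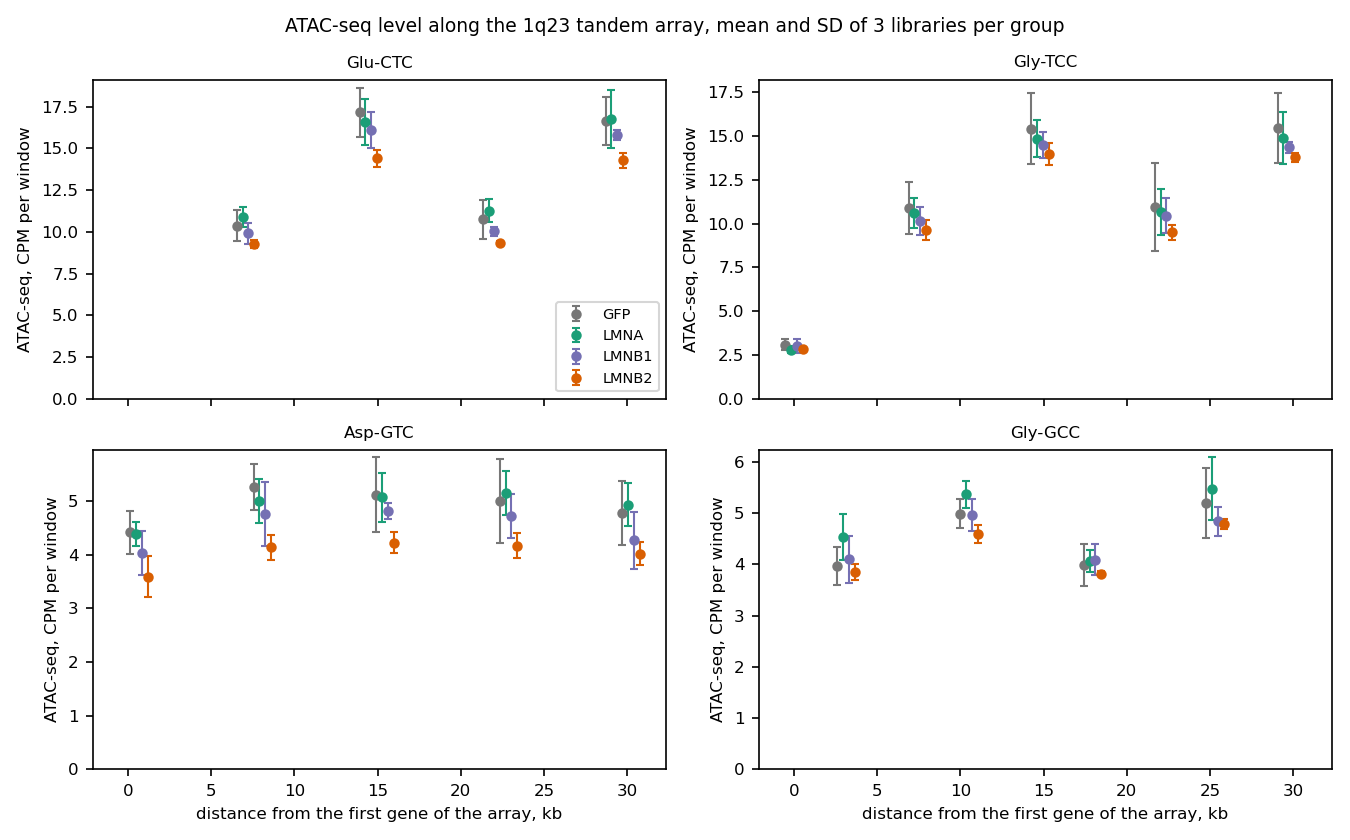
ATAC-seq level along the tandem array, by distance from its first gene, for the 4 gene kinds of the repeat unit (points are group means, bars SD, 3 libraries each, in CPM per window from 0). With TMM scaling, LMNB2 (orange) is the lowest group mean at 17 of the 18 genes, and TRE-CTC1-3 and TRE-CTC1-5 reach 16.1 and 15.9 over all libraries against 10.1 and 10.3 at TRE-CTC1-2 and TRE-CTC1-4.

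Against LMNA, ATAC-seq lay lower in LMNB2 at 61 of 66 genes, with a median of -0.17, beside -0.14 for the other nuclear tRNA genes. No gene was called by edgeR's quasi-likelihood test, where 0.00305% of all windows were (lowest adjusted p = 0.486), and DESeq2 called 0. At an unadjusted p under 0.05 stood 20 genes, where 7.17% of all windows did. Fitting only the 6 libraries compared gave 6 calls, where that fit called 0.614% of all windows, all lower and all in the array: TRE-CTC1-2 to TRE-CTC1-5, TRD-GTC2-4 and TRD-GTC2-5. Against LMNB1, 59 of 66 lay lower, with a median of -0.14, 0 were called by edgeR or DESeq2, where 0.00305% of all windows were called by edgeR, and 12 stood at an unadjusted p under 0.05, where 4.98% of all windows did.

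In ATAC-seq the medians of LMNA and LMNB1 against GFP were 0.04 and 0.02 over the 66 genes. They turned to -0.046 and -0.044 without GFP replicate 3, and were 0.12 and 0.21 with total counts as the scale. Neither comparison gave a call by edgeR's quasi-likelihood test, where 0.000611% and 0.00305% of all windows were called, nor by DESeq2, and 6 and 4 genes stood at an unadjusted p under 0.05, where 5.19% and 4.78% did. TRG-CCC1-1 had 6.88, 6.59 and 5.56 CPM in GFP, 7.04, 7.49 and 6.44 CPM in LMNA, 7.52, 7.32 and 7.03 CPM in LMNB1 and 6.58, 5.84 and 6.89 CPM in LMNB2. LMNB1 lay above GFP without overlap, with a log2 fold change of 0.20 ± 0.08 (adjusted p = 0.978 by edgeR's quasi-likelihood test). TRG-GCC2-6 had 1.63, 1.53 and 1.502 CPM in GFP, 2.18, 1.78 and 1.75 CPM in LMNA, 1.87, 2.16 and 1.55 CPM in LMNB1 and 1.54, 1.49 and 1.51 CPM in LMNB2. LMNA lay above GFP without overlap, with a log2 fold change of 0.29 ± 0.12, and LMNB2 overlapped GFP. LMNB1 and LMNA were also compared, with a median of -0.03, 0 calls by edgeR or DESeq2, where 0.223% of all windows were called by edgeR, and 3 genes at an unadjusted p under 0.05, where 5.37% did.

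A test for any difference among the 4 groups called 0 of 65 genes in small RNA and 0 of 66 in ATAC-seq by edgeR's quasi-likelihood test, where 1.68% and 0.0421% of all features were called. At an unadjusted p under 0.05 stood 9 and 14 genes, where 15.9% and 5.81% of all features did, and DESeq2 called 2 (2.61% of all features) and 0. Leaving out GFP replicate 3 gave 6 calls in small RNA, where 9.02% of all features were called, and 2 in ATAC-seq, TRE-CTC1-3 and TRE-CTC1-4, where 0.385% were.

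Other products of the same polymerase, and RNAs of tRNA maturation, were read from a list of 16 genes with 21 features, all of them tested. None was called in any comparison of either assay by edgeR's quasi-likelihood test. Against GFP, an unadjusted p under 0.05 was found for 2 (LMNA), 1 (LMNB1) and 5 (LMNB2) of the 21 features in small RNA, and for 0, 0 and 3 in ATAC-seq; DESeq2 calls were not tabulated for this list. Their medians against GFP in small RNA were 0.15 (LMNA), 0.06 (LMNB1) and -0.03 (LMNB2), and in ATAC-seq -0.01, 0.02 and -0.08. RPPH1, the RNA of the enzyme that trims the leader of precursor tRNA, had mean small RNA levels of 24.5 CPM for GFP, 29.8 for LMNA, 26.3 for LMNB1 and 27.6 for LMNB2. RNY1, a Y RNA (chosen after its values were seen), had 321, 402, 372 and 470 CPM in the same order (log2 fold change 0.55 in LMNB2, adjusted p = 0.228 by edgeR's quasi-likelihood test).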

How the data were processed

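Small RNA and ATAC-seq were measured in 24 libraries, 12 per assay, in 4 groups of 3 taken from the labels. The authors deposited raw counts per feature for each library, over whole intervals in small RNA and over windows 125 bp wider on each side in ATAC-seq. The build is GRCh38 per the submitters' processing notes. The aligner, the counter, the treatment of reads with several matches and any use of strand are not given in the sources used here. The genes and gene lists were chosen with earlier results of these data known.

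Counts were tested in R 4.3.3 with edgeR 4.0.16 (quasi-likelihood test, TMM scaling, filterByExpr, prior count of 2, all 12 libraries of an assay) and Benjamini-Hochberg adjustment over all features tested, with a threshold of 0.05. The test was tested on simulated data: for LMNB2 against GFP, 24% of features simulated at a fold change of 0.5 and 30% at 2 were called in small RNA (32378 features), and 88% and 94% in ATAC-seq (162357 features). Each rate is over 50 changed features, drawn from those with a mean over 50 counts. The rates do not cover features with fewer counts, such as tRNA-Gly-GCC-6-1. Features were simulated independently, so copies that share reads are not represented. Genes named in the text are those with the highest level of each anticodon in either assay, every called gene, and, in each assay and for each lamin against GFP, the 2 highest and 2 lowest fold changes among genes at or above the median level. Other genes are named for their place, for a call under an alternative or for their values, and were chosen after values were seen. Same-numbered libraries were not taken as pairs, since not every pair's deviations correlated above 0.1 (correlations of -0.04 to 0.23 in small RNA and -0.08 to 0.19 in ATAC-seq, 2 of 18 pairs over 0.1 in each). Alternatives were other scalings and count filters, only the libraries compared, a replicate block, no lncRNA features and a threshold of 0.01. Others were DESeq2 1.42.0, ATAC-seq relative to flanks, each library left out, and genes combined by name. Combined genes share the deposited name up to and including its first number, and their counts were averaged. Intervals and limits from counts cover counting error only.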

Additional observations from a re-analysis of the deposited data

How the results depend on the processing

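Alternative settings changed counts of calls, and some medians changed sign. Among these was the small RNA median of LMNB2 against GFP, without GFP replicate 3. The number of genes called in small RNA between LMNB2 and GFP, 1, was 0 with total counts only, only the libraries compared, no lncRNA features or a threshold of 0.01, 2 with no count filter and 5 with DESeq2. With no count filter 3 genes were called between LMNB2 and LMNA, 1 between LMNB2 and LMNB1 and 2 for the 4 groups jointly, and with DESeq2 5, 1 and 2. With only the libraries compared, 1 gene was called between LMNB1 and LMNA, 26 between LMNB2 and LMNA and 35 between LMNB2 and LMNB1 in small RNA, and 6 between LMNB2 and LMNA in ATAC-seq.

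With total counts only, the median of all features in small RNA was 0.11 for LMNB1 and 0.19 for LMNB2 against GFP, and calls between LMNB2 and GFP over all features were 281 higher and 1 lower, against 646 and 255. The small RNA medians of the genes were then 0.037 (LMNB1 against LMNA), -0.041 (LMNB2 against LMNA) and -0.096 (LMNB2 against LMNB1), and without lncRNA features 0.0053, -0.059 and -0.089. The median of LMNB2 against LMNA was -0.40 with genes combined by name. In ATAC-seq with total counts only, the median of LMNB1 against GFP was 0.21, and TRD-GTC2-2 (LMNA 0.010, LMNB1 0.044), TRD-GTC2-5 (LMNB1 0.023) and TRG-GCC1-5 (LMNA 0.011) changed sign. The cause was not tested.

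Leaving out 1 library at a time gave 0 to 1 calls in small RNA for LMNA and for LMNB2 against GFP, 0 to 9 for LMNB2 against LMNA, 0 to 6 against LMNB1 and 0 to 6 for the 4 groups jointly, and 0 to 2 jointly in ATAC-seq. Small RNA medians ranged from -0.0022 to 0.33 for LMNA, from -0.15 to 0.16 for LMNB1 and from -0.40 to 0.10 for LMNB2 against GFP. Without GFP replicate 3, TRE-CTC1-1 (LMNB1, range -0.30 to 0.21) and TRG-GCC1-5 (LMNA, -0.26 to 0.42, and LMNB1, -0.37 to 0.30) in small RNA and TRE-TTC2-1 (LMNB2, -0.051 to 0.15) in ATAC-seq changed sign against GFP, as did TRE-TTC3-1 (LMNB2, -0.039 to 0.16) in ATAC-seq without GFP replicate 2.

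With the replicate number as a block, the calls between LMNB2 and GFP in small RNA went from 1 to 0, and the block changed no other count of calls. In small RNA, 11 of 18 same-numbered pairs correlated best with their own number, and in ATAC-seq 5 of 18. Depth limits the genes with few counts, such as tRNA-Gly-GCC-6-1.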

Other observations

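Along the tandem array the ATAC-seq level alternated between repeat units. TRE-CTC1-2, TRE-CTC1-3, TRE-CTC1-4 and TRE-CTC1-5 had mean levels of 10.1, 16.1, 10.3 and 15.9 CPM, and the neighbouring TRG-TCC2-2 to TRG-TCC2-5, whose windows overlap theirs and share reads, 10.3, 14.7, 10.4 and 14.6 CPM. The genes were chosen after their values were seen, and how reads that match several units were placed is not given in the sources used here.

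Genes with no RefSeq tRNA gene held single libraries far from the rest (chosen after values were seen). tRNA-Gly-GCC-5-1, inside VAC14, had 104 CPM of small RNA in GFP replicate 3 and 26.4 to 43.0 CPM in the other libraries. tRNA-Glu-TTC-5-1 had 4.30 CPM in LMNA replicate 3 and 0.301 to 1.66 CPM in the other libraries.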
